A study of Mus musculus with 4 samples.

Results

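The genes described here are 39 mouse genes of sterol and fatty acid metabolism, chosen by name from a fixed list of pathway genes: 19 enzymes of cholesterol and isoprenoid synthesis, 5 genes that control the sterol regulatory element-binding proteins (SREBPs), 2 genes of sterol uptake and transport, 2 sterol exporters, the 2 liver X receptors (LXRs) and 9 enzymes of fatty acid synthesis and desaturation. They were found among the 53647 genes listed in the count tables through their Ensembl identifiers, all 39 of them, and 38 passed the filter on low counts, against 12972 genes tested in all. RNA was sequenced from 4T1, a breast cancer cell line from a BALB/c mouse whose genotype the labels give as WT, after delivery of 1 of 2 mRNAs. In the uniSTING group this mRNA encoded uniSTING, a synthetic protein built to mimic active STING, an adaptor of innate immunity, and in the Mock group it encoded the fluorescent protein EGFP. Both groups were thus exposed to exogenous mRNA and its carrier, which the labels give as a transfection reagent or lipid nanoparticles but do not tie to single libraries; dose and time are not given in the sources used here. Each group held 2 libraries, numbered as preparations in the labels and called replicates 1 and 2 here. No label states that the cultures were separate. The p-values therefore reflect how far the libraries of a group differ, and that spread may be technical. Neither delivered mRNA is annotated in the mouse genome, and delivery was not checked.

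Total counts were 18843543 and 25071840 in the uniSTING libraries and 17502694 and 22039546 in the Mock libraries. The variance between the libraries of a group was 1.52 times counting noise in uniSTING and 1.47 times in Mock, over genes with at least 50 counts, against 14.2 and 17.3 times between libraries of different groups. The epithelial and mammary markers Krt8, Krt18, Krt14, Epcam and Cdh1 summed to 3620 and 3640 CPM, or counts scaled to a common library size, in uniSTING and 3570 and 3600 CPM in Mock. Among adipocyte markers, Adipoq and Cidec had no read and all 4 markers together had 5 and 2 counts in uniSTING and 2 and 0 counts in Mock. Macrophage markers summed to 12.5 and 11.9 CPM in uniSTING and 9.76 and 7.65 CPM in Mock. Most of these counts were from Cd68, at 201 and 260 in uniSTING and 147 and 142 in Mock, 1.44-fold higher. No other macrophage marker had more than 28 counts in a library. Fibroblast markers summed to 13 and 9.84 CPM in uniSTING and 10.3 and 7.78 CPM in Mock. Most of their counts were from Pdgfra, at 167 and 213 in uniSTING and 126 and 141 in Mock, 1.29-fold higher. No other fibroblast marker had more than 36 counts in a library. Endothelial markers summed to 1.07 and 0.161 CPM in uniSTING and 1.76 and 0.226 CPM in Mock. The part of such cells in the results was not tested.

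As background, cells make cholesterol from acetyl-CoA through mevalonate, the isoprenoid diphosphates, squalene and lanosterol. SREBPs are membrane-bound transcription factors that the escort protein SCAP carries to the Golgi for cleavage when sterols are low, while INSIG proteins hold SCAP in the endoplasmic reticulum when sterols are high. SREBP2 mainly drives cholesterol genes and SREBP1c mainly fatty acid genes. LXRs are nuclear receptors for oxysterols that turn on sterol efflux, and they also drive Srebf1 and some fatty acid genes. Members were grouped by these textbook drivers: 27 as SREBP-driven, 3 as LXR-driven (Abca1, Abcg1 and Mylip), 4 as driven by both (Srebf1, Fasn, Scd1 and Scd2) and 5 as unclassed.

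The enzymes of sterol synthesis were higher in uniSTING along almost the whole pathway, whereas the central pair of fatty acid synthesis, Fasn and Acaca, was lower. Of the 38 tested members 26 rose, 5 fell and 7 did not pass, at a threshold of 0.05 on p-values from edgeR's quasi-likelihood test adjusted by Benjamini-Hochberg over all genes tested. Over all tested genes 50.2% passed, 24.9% upward and 25.4% downward, so a passing gene is common in this comparison. The median log2 fold change was 0.35 over the members and 0.01 over all genes. At least 1.5-fold, 7 members rose and 2 fell, against 5.19% and 4.52% of all genes. Both uniSTING libraries lay above both Mock libraries for 30 members (37.8% of all genes) and below them for 6 (37.3% of all genes), and 2 members overlapped. In bulk RNA, a change in the number of expressing cells and a change in RNA per cell cannot be told apart. Levels below are CPM scaled by TMM, a normalization of library sizes, unless TPM are named. For TPM, counts were divided by summed exon length and each library was scaled to the same total, without TMM. Differences between groups can therefore differ between CPM and TPM.

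**Figure D1:**
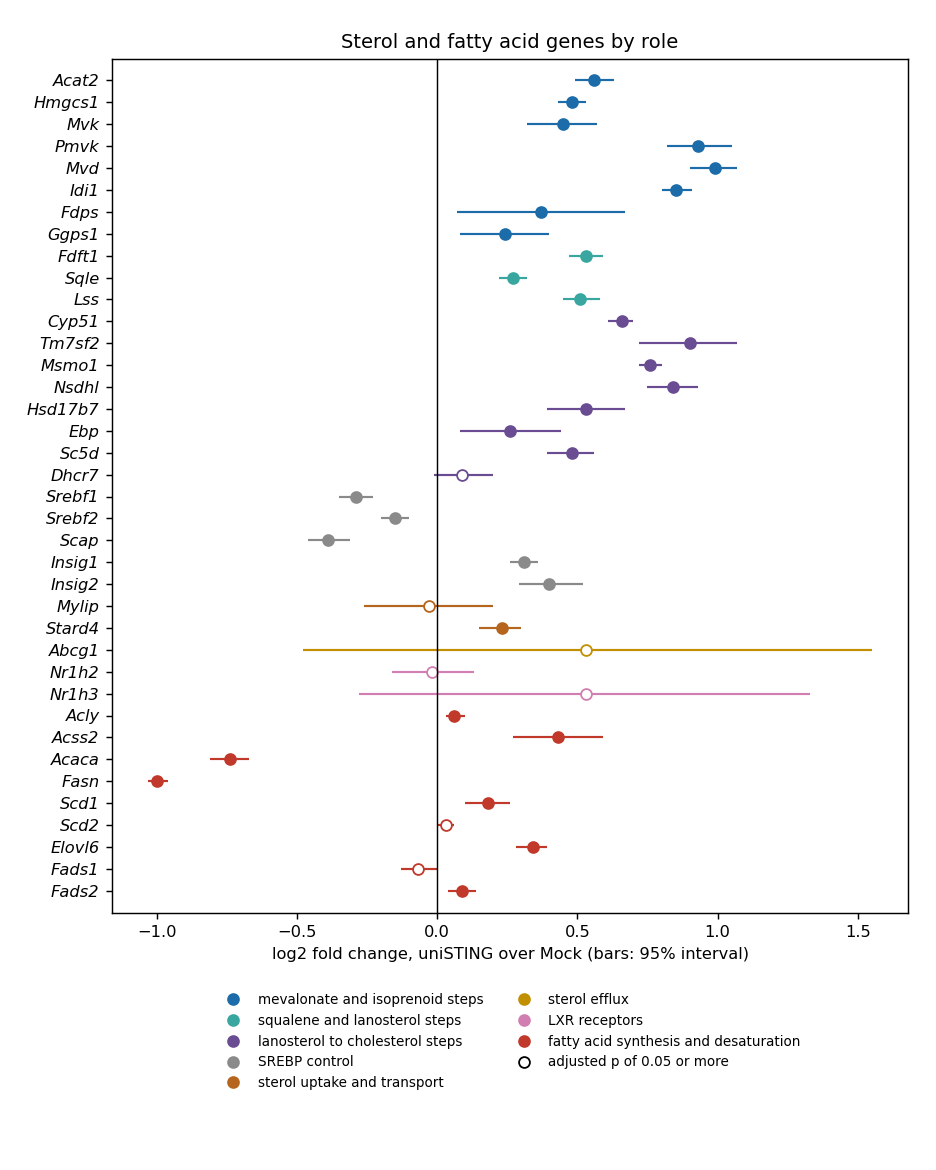
Log2 fold change of the 38 tested members, uniSTING over Mock, on the x axis, with genes in pathway order by role on the y axis; bars are 95% intervals from 2 libraries a group and open circles mark genes that did not pass. The sterol enzymes sit to the right of 0, from 0.09 for Dhcr7 to 0.99 for Mvd, and Fasn and Acaca sit alone on the far left at -1 and -0.74.

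Of the 19 sterol and isoprenoid enzymes 18 rose and none fell; their median was 0.53 on the log2 scale. No fall was called by DESeq2 or limma-voom either, nor by edgeR at an unadjusted p under 0.05. All 7 members that rose at least 1.5-fold were among them. In the mevalonate branch, all 8 enzymes rose. Mvd, which decarboxylates mevalonate diphosphate (ENSMUSG00000006517), had 96.5 and 97.3 CPM in the uniSTING libraries and 47.9 and 49.6 CPM in the Mock libraries. The groups were far apart, a 1.99-fold rise (log2 fold change 0.99, SE 0.04, adjusted p = 7.47e-09). Pmvk, the phosphomevalonate kinase, had 74.5 and 71.4 CPM in uniSTING and 37.9 and 38.5 CPM in Mock, a 1.91-fold rise. Idi1, the isomerase that makes dimethylallyl diphosphate, had 255 and 251 CPM in uniSTING and 142 and 138 CPM in Mock, 1.81-fold higher (adjusted p = 1.44e-09). These 3 consecutive steps had the highest fold changes of the branch. Upstream, Acat2, the thiolase that makes acetoacetyl-CoA, rose 1.47-fold, the synthase gene Hmgcs1 1.40-fold and the mevalonate kinase gene Mvk 1.36-fold. Hmgcs1 was the most counted of the branch, at 344 and 346 CPM in uniSTING and 243 and 250 CPM in Mock.

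At the branch point, calls were weaker. Fdps, which makes farnesyl diphosphate, had 145 and 223 counts in uniSTING and 125 and 131 counts in Mock, 5.60 ± 0.580 TPM against 4.77 ± 0.615 TPM (SD, n = 2 libraries each). That is far under its pathway neighbour Idi1, at 204 ± 2.02 TPM in uniSTING and 123 ± 2.52 TPM in Mock. Its exons share 26.7% of their bases with the same-strand gene Gm43738, which had no count in any library, so its level is uncertain. Its rise of 0.37 on the log2 scale (SE 0.14, adjusted p = 0.0434) was lost with DESeq2 (adjusted p = 0.220), with TPM scaling (adjusted p = 0.160), without replicate 2 of Mock (adjusted p = 0.283) or of uniSTING (adjusted p = 0.244). Ggps1, which makes geranylgeranyl diphosphate for protein prenylation, rose 1.18-fold (adjusted p = 0.0159). That call was lost with DESeq2 (adjusted p = 0.0845), with TPM scaling (adjusted p = 0.200), with length and GC trends removed (adjusted p = 0.0504), without replicate 1 of Mock (adjusted p = 0.143) or replicate 2 of uniSTING (adjusted p = 0.0782).

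All 3 enzymes from farnesyl diphosphate to lanosterol rose, by less than 1.5-fold. Fdft1, squalene synthase, had 191 and 194 CPM in uniSTING and 135 and 132 CPM in Mock, 1.44-fold higher. The cyclase gene Lss had 146 and 148 CPM in uniSTING and 102 and 104 CPM in Mock, 1.42-fold higher. Sqle, the squalene epoxidase and a rate-limiting step, rose least, with 310 and 304 CPM in uniSTING and 252 and 257 CPM in Mock, 1.21-fold (log2 fold change 0.27, SE 0.02). In all 3 genes both uniSTING libraries lay above both Mock libraries, as they did for 37.8% of all tested genes. The exons of Fdft1 share 18.8% of their bases with the opposite-strand gene Ctsb, which had 5873 and 7893 counts in uniSTING and 4686 and 5887 counts in Mock. The counting did not use strand, so reads there cannot be told apart.

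Beyond lanosterol, 7 of 8 enzymes rose, with a median of 0.59. Msmo1, the sterol C4-methyl oxidase, had 541 and 536 CPM in uniSTING and 315 and 321 CPM in Mock, a 1.69-fold rise with the smallest adjusted p of the sterol enzymes (4.39e-10). Nsdhl, its partner in C4 demethylation, had 95.7 and 91.4 CPM in uniSTING and 51.2 and 53.0 CPM in Mock, 1.79-fold higher. The third gene of that complex, Hsd17b7, rose 1.44-fold. Cyp51, lanosterol 14-demethylase, rose 1.58-fold, to 370 ± 3.45 CPM in uniSTING against 235 ± 0.316 CPM in Mock (SD, n = 2 libraries each). The sterol reductase gene Tm7sf2 had 20.3 and 20.8 CPM in uniSTING and 11.1 and 11 CPM in Mock, 1.86-fold higher. It shares 12.1% of its exonic bases with the same-strand gene Vps51, whose counts were 625 and 774 in uniSTING and 669 and 780 in Mock. Sc5d, the lathosterol desaturase, rose 1.39-fold. The rise at Ebp, the sterol isomerase, rested on 1 library: it had 41.8 and 41.9 CPM in uniSTING and 31.9 and 37.9 CPM in Mock (log2 fold change 0.26, SE 0.08, adjusted p = 0.0222). Without Mock replicate 1 its log2 fold change was 0.13 (adjusted p = 0.216), and its call was also lost with the length trend removed (0.14, adjusted p = 0.187), with length and GC trends removed (0.12, adjusted p = 0.244) and with TPM scaling (0.13, adjusted p = 0.197). Dhcr7, which performs the last step to cholesterol, did not pass, with 60.3 and 61.9 CPM in uniSTING and 56.5 and 58.1 CPM in Mock and an interval of the log2 fold change from -0.01 to 0.20. It passed once trends with length (0.15, adjusted p = 0.0219) or with length and GC content (0.17, adjusted p = 0.0139) were removed, and its value was -0.03 with TPM scaling.

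**Figure D2:**
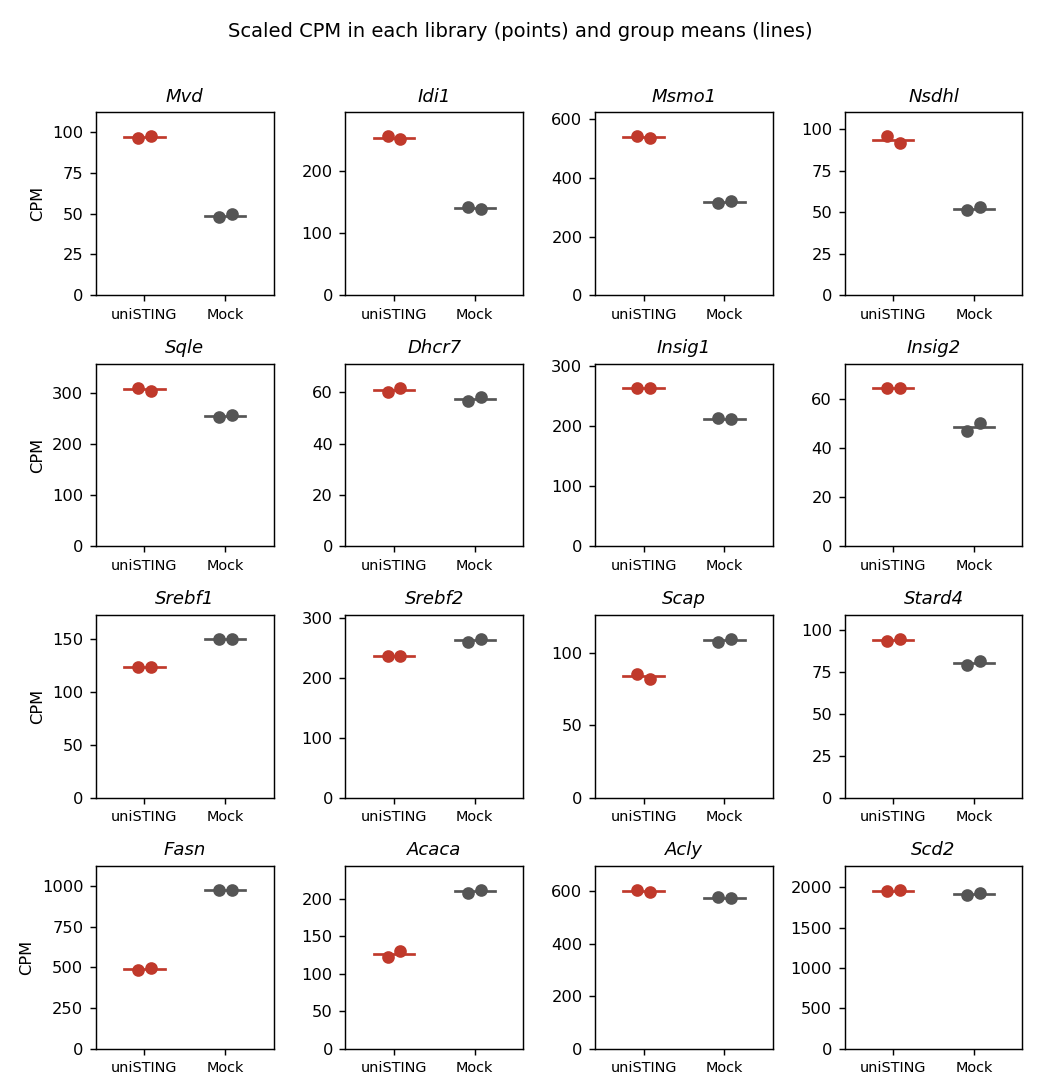
TMM-scaled CPM (y axis, from 0) of 16 members in each library, with uniSTING left of Mock; points are libraries and lines group means. The libraries of a group lie close together, as in Mvd at 96.5 and 97.3 CPM in uniSTING and 47.9 and 49.6 CPM in Mock, and Fasn shows the widest gap in the opposite direction.

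Promoter sequence was set beside these values because most sterol enzymes moved in the same direction. SREBPs bind sterol regulatory elements and act with NF-Y, which binds the CCAAT box. The 250 bases before each RefSeq start (GRCm38.p6, matched by symbol, 31 of the 39 members) were searched on both strands. A CCAAT box (CCAAT, or ATTGG on the other strand) was found for 15 of 16 sterol and isoprenoid enzymes with a window (all but Acat2), against 40.9% of the 9254 tested genes with a window. Dhcr7 counts only through a window whose start lies 7047 bases inside the gene, and its outer windows hold no CCAAT box. The CCAAT box was found for 2 of 6 fatty acid genes (Acss2 and Fasn) and 5 of 9 other members. The sterol regulatory element spelled TCACNCCAC was found for Hmgcs1 alone among the members, against 1.23% of tested genes. Its shorter form TCACNCCA, which overlaps it, was also found for Msmo1 and Srebf2, so for 3 of 31 members, against 3.97% of tested genes. The E-box CACGTG, another sequence SREBPs can bind, was found for 3 of the 16 sterol enzymes, none of the 6 fatty acid genes and 3 of 9 other members, against 10.1% of tested genes. The LXR element, AGGTCA repeated after a gap of 4 bases (DR4), matched no member and 0 of the 9254 tested genes, which says only that these letters are not in these windows. A match of letters is not a binding site, and the nearest listed windows of Acaca, Nr1h3 and Srebf1 start 65.8, 7.71 and 1.6 kb inside the gene. The 150 bases before the start are given for all 7 members that rose at least 1.5-fold, in order of fold change and with both listed windows of Pmvk, then for Hmgcs1 with its sterol regulatory element, and for Fasn, which fell. Capitals mark CCAAT boxes on either strand and, in Hmgcs1, also TCACCCCAC.
Mvd, chr8:122443423-122443572, minus strand: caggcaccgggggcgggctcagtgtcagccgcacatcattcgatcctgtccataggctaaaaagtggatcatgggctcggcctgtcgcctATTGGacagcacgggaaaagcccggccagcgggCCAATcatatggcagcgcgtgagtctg
Pmvk, chr3:89454391-89454540, plus strand: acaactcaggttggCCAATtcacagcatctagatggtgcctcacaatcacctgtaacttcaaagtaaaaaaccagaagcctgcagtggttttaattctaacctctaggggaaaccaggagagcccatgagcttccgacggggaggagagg
Pmvk, chr3:89459421-89459570, plus strand: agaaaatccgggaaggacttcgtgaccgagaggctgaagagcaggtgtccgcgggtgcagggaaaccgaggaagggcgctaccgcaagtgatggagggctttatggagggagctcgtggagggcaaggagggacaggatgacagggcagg
Tm7sf2, chr19:6067851-6068000, minus strand: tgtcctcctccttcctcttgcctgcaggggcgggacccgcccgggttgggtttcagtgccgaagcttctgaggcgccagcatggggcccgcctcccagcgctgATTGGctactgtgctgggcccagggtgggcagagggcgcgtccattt
Idi1, chr13:8885456-8885605, plus strand: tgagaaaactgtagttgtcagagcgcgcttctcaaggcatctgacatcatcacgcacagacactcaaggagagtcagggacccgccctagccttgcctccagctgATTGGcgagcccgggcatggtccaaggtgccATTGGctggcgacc
Nsdhl, chrX:72918371-72918520, plus strand: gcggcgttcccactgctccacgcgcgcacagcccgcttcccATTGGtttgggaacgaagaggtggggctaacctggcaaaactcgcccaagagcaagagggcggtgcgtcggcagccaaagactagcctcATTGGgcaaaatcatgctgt
Msmo1, chr8:64733579-64733728, minus strand: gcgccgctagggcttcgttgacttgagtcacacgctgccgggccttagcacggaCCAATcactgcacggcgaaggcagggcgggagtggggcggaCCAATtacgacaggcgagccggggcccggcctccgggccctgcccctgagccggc
Cyp51, chr5:4104698-4104847, minus strand: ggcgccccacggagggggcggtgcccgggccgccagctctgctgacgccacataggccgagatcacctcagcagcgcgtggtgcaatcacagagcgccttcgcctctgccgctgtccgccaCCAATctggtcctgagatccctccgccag
Hmgcs1, chr13:119690201-119690350, plus strand: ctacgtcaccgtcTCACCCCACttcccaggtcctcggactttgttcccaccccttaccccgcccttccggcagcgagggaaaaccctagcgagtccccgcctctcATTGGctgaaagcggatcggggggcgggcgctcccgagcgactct
Fasn, chr11:120824548-120824697, minus strand: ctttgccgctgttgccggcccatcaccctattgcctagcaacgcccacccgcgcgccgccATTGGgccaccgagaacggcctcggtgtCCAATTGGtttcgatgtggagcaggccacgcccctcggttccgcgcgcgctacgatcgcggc
The Mvd, Idi1, Nsdhl and Msmo1 stretches hold 2 CCAAT boxes each, and the Tm7sf2 and Cyp51 stretches 1 each. Of the Pmvk stretches, 1 holds a CCAAT box that begins 136 bases before the start, and the other, at a start 5030 bases further into the gene, holds none. The Hmgcs1 stretch holds 1 CCAAT box that begins 45 bases before the start and the sterol regulatory element that begins 137 bases before it. The Fasn stretch holds 3 matches, of which a pair overlap in a palindrome that begins 62 bases before the start.

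Fatty acid genes did not move together. Of 9 members 5 rose, 2 fell and 2 did not pass; their median was 0.06 on the log2 scale. Fasn, the fatty acid synthase, had 483 and 496 CPM in uniSTING and 976 and 977 CPM in Mock. It fell 1.99-fold (log2 fold change -1, SE 0.02, adjusted p = 5.72e-11), and 1.78% of all tested genes had a lower fold change. Acaca, the acetyl-CoA carboxylase that makes malonyl-CoA for Fasn, had 122 and 130 CPM in uniSTING and 208 and 212 CPM in Mock. It fell 1.67-fold (log2 fold change -0.74, SE 0.03, adjusted p = 1.61e-08). The enzymes that supply acetyl-CoA went the other way. Acss2, acetyl-CoA synthetase, had 28.2 and 26.4 CPM in uniSTING and 20.4 and 20.1 CPM in Mock, 1.35-fold higher (adjusted p = 4.92e-04). ATP citrate lyase, Acly, had 605 and 596 CPM in uniSTING and 576 and 572 CPM in Mock, 1.04-fold higher (adjusted p = 0.00999). The Acly call was lost without Mock replicate 1 (adjusted p = 0.0519) or replicate 2 (adjusted p = 0.0652), and its direction turned with TPM scaling (log2 fold change -0.06, adjusted p = 0.00996).

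Downstream of Fasn, the elongase gene Elovl6 had 249 and 254 CPM in uniSTING and 202 and 197 CPM in Mock, 1.26-fold higher (adjusted p = 8.77e-07). The stearoyl-CoA desaturase genes Scd1 and Scd2 are neighbours on chromosome 19 and paralogs, so reads of stretches they share are uncertain. Scd1 rose 1.13-fold (adjusted p = 0.00160), with 162 and 163 CPM in uniSTING and 150 and 138 CPM in Mock, a call lost with TPM scaling (adjusted p = 0.242). Scd2, the most abundant member per length at 1010 TPM in uniSTING and 1080 TPM in Mock on average, had 1950 and 1970 CPM in uniSTING and 1900 and 1930 CPM in Mock and did not pass (log2 fold change 0.03, adjusted p = 0.0546), though it passed upward with the length trend removed (0.08) and downward with TPM scaling (-0.09, adjusted p = 1.03e-04). Fads2, a desaturase of polyunsaturated fatty acids, rose 1.06-fold (adjusted p = 0.00843). This call was lost with DESeq2 (adjusted p = 0.0507), without Mock replicate 1 (adjusted p = 0.107), with the length trend removed (adjusted p = 0.184) and with length and GC trends removed (adjusted p = 0.0502), and TPM scaling gave -0.04. Its neighbour Fads1 did not pass, with 145 and 140 CPM in uniSTING and 151 and 147 CPM in Mock and an interval from -0.13 to 0.00; with TPM scaling it was lower (-0.19, adjusted p = 2.83e-04). Per length, the 19 sterol enzymes together had 2130 and 2110 TPM in the uniSTING libraries and 1500 and 1520 TPM in the Mock libraries. The 9 fatty acid genes had 2040 and 2050 TPM in uniSTING and 2290 and 2300 TPM in Mock. The sterol total thus exceeded the fatty acid total in both uniSTING libraries and was under it in both Mock libraries.

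Genes that control SREBPs were split. Srebf1, which encodes SREBP1, had 123 CPM in both uniSTING libraries and 150 CPM in both Mock libraries, and fell 1.22-fold (log2 fold change -0.29, SE 0.03, adjusted p = 6.38e-06). With length and GC trends removed the fall was -0.11 and still passed (adjusted p = 0.00758). Srebf2, which encodes SREBP2, had 237 CPM in both uniSTING libraries and 261 and 266 CPM in Mock, a fall of -0.15 on the log2 scale (SE 0.02, adjusted p = 2.03e-04). That call was lost with the length trend removed (-0.05, adjusted p = 0.115), and the value was 0.04 with length and GC trends removed (adjusted p = 0.203). Scap had 85.6 and 82.1 CPM in uniSTING and 108 and 110 CPM in Mock and fell 1.31-fold (adjusted p = 3.79e-06), or by -0.22 on the log2 scale with length and GC trends removed (adjusted p = 3.45e-04). The genes that retain SCAP were higher instead. Insig1, itself an SREBP target, had 264 and 263 CPM in uniSTING and 213 and 211 CPM in Mock, 1.24-fold higher (adjusted p = 8.39e-07). Insig2 had 64.1 and 64.5 CPM in uniSTING and 47.0 and 50.1 CPM in Mock, 1.32-fold higher (adjusted p = 7.18e-05). Transcript levels of SREBP genes do not measure the cleaved, active proteins.

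LXR genes and their targets showed little that could be called. Of the 3 LXR-driven members none passed edgeR, DESeq2 or limma-voom, and none had an unadjusted p under 0.05 in any of these. The exporter gene Abca1 had 11 and 0 counts in uniSTING and 7 and 0 counts in Mock, all in the replicate 1 libraries, and was too low to be tested; its ratio of summed counts was 1.43 (95% binomial interval 0.507 to 4.35, counting error only). Genes outside the members showed the same pattern, among them Lpl with 18 and 0 counts in uniSTING and 13 and 0 in Mock, the leukocyte marker Ptprc with 19 and 0 in uniSTING and 8 and 0 in Mock, and the fibroblast marker Dcn with 13 and 0 in uniSTING and 7 and 0 in Mock. The part of other cells' RNA in these counts was not tested. Abcg1 had 13 and 19 counts in uniSTING and 9 and 11 counts in Mock, 0.53 on the log2 scale with an interval from -0.48 to 1.55. Mylip, an E3 ligase that degrades lipoprotein receptors, was better measured, at 9.39 and 10.3 CPM in uniSTING and 10.3 and 9.91 CPM in Mock. Its groups overlapped (log2 fold change -0.03, interval -0.26 to 0.20). Of the receptors themselves, Nr1h2 (LXRβ) had 39.2 and 41.6 CPM in uniSTING and 40.3 and 41.5 CPM in Mock, with an interval from -0.16 to 0.13. Nr1h3 (LXRα) had 23 and 35 counts in uniSTING and 19 and 17 counts in Mock, with an interval from -0.28 to 1.33. No receptor gene passed edgeR, DESeq2 or limma-voom or had an unadjusted p under 0.05. Per length, Nr1h2 stood at 34.0 ± 1.43 TPM in uniSTING and 37.6 ± 0.625 TPM in Mock, and Nr1h3 at 1.48 ± 0.142 TPM in uniSTING and 1.13 ± 0.270 TPM in Mock (SD, n = 2 libraries each). Stard4, an SREBP-driven sterol carrier, rose 1.17-fold, with 93.8 and 95.1 CPM in uniSTING and 79.6 and 81.9 CPM in Mock (adjusted p = 2.01e-04).

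Set side by side by driver, the 27 SREBP-driven members counted 23 that rose, 2 that fell (Acaca and Srebf2) and 2 that did not pass, with a median log2 fold change of 0.45. Their mean log2(CPM + 0.5) was 6.99 in both uniSTING libraries and 6.58 and 6.60 in Mock. Among them, the 18 sterol enzymes had a median of 0.53 and the 6 fatty acid genes one of 0.07. The 2 tested LXR-driven members had a median of 0.25, which rests mainly on the few reads of Abcg1. Their mean log2(CPM + 0.5) was 1.78 and 1.89 in uniSTING and 1.72 and 1.69 in Mock. Of the 4 members driven by both, Scd1 rose, Srebf1 and Fasn fell and Scd2 did not pass, with a median of -0.13 and means of 8.54 and 8.55 in uniSTING and 8.82 and 8.80 in Mock. Counted with the LXR-driven genes, they gave a median of 0.00 over 6 tested genes. The difference between the classes was not tested, since the members were chosen with earlier results of these data known.

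Fold changes in this comparison followed gene length, and Fasn and Acaca are long. Spearman's rho between exon length and log2 fold change was -0.36 over the tested genes, which share these libraries and are no independent replicates. The median log2 fold change was 0.26 in the decile of shortest genes and -0.24 in the decile of longest genes, which starts at 9.63 kb. The exons of Fasn sum to 10.9 kb and those of Acaca to 17.1 kb. Once each library's trend with length was removed, Fasn was at -0.79 (adjusted p = 1.46e-09) and Acaca at -0.40 (adjusted p = 5.26e-06), and with length and GC trends removed they were at -0.67 (adjusted p = 3.38e-10) and -0.43 (adjusted p = 1.21e-06). Both stayed past the threshold, but the size of the Acaca fall moved by more than 1.5 times. Lss and Acss2, of 10.8 and 10.2 kb, belong to the same decile and rose by 0.51 and 0.43, and by 0.72 and 0.62 with the length trend removed. These lengths sum the annotated exons of a gene, and the length of the transcripts present was not measured. Values with the length trend removed depend on these sums. The sterol enzymes then had a median of 0.52, with 18 that rose. Without the length trend 23.4% of all genes rose and 22.2% fell, and among the members 26 rose and 4 fell. Without length and GC trends 22.5% of all genes rose and 21.9% fell, and among the members 25 rose and 4 fell.

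**Figure D3:**
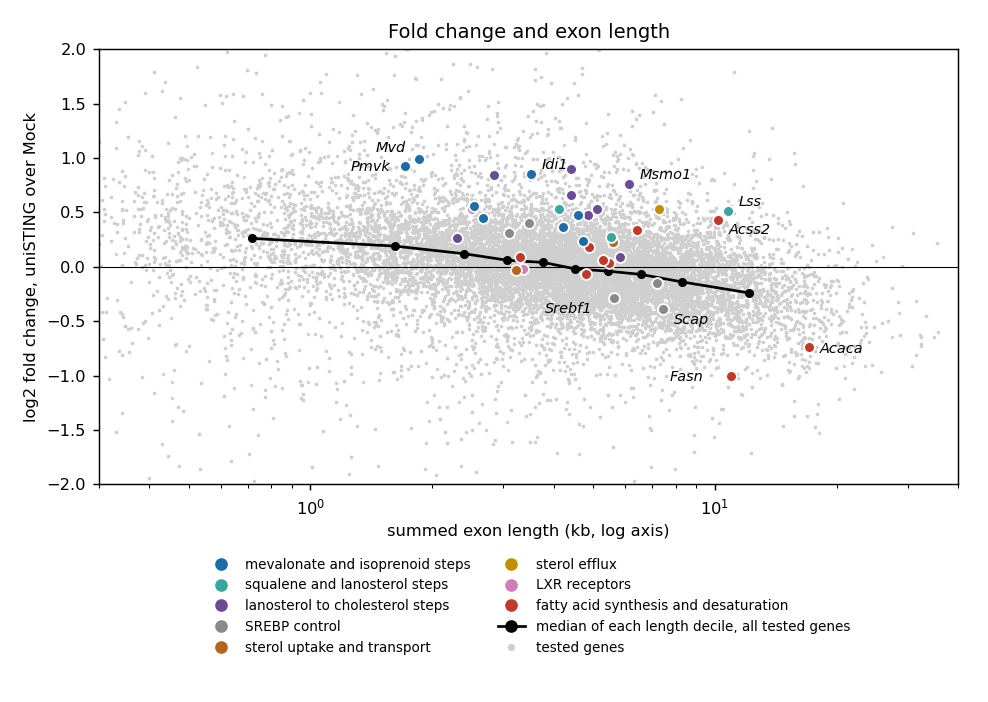
Log2 fold change, uniSTING over Mock (y axis, genes beyond 2 on either side not drawn), against summed exon length in kb (log x axis) for tested genes (grey) and members (coloured by role); the black line joins the medians of length deciles, from 0.26 to -0.24. Most sterol enzymes lie above the line at their length, and Fasn and Acaca lie below it.

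The scale also matters for small changes. Scaling libraries to TPM, an alternative chosen after seeing the data, moved the median of all genes to -0.12 on the log2 scale, with 1873 genes higher and 4974 lower in place of 3225 and 3290. With TPM scaling 20 members rose and 8 fell, against 14.4% and 38.3% of all genes. The sterol enzymes then counted 15 of 19 that rose and none that fell, with a median of 0.40, and the fatty acid genes 2 that rose and 5 that fell. The direction of Acly, Fads2, Scd2 and Dhcr7 turned, each of which lay within 0.10 of 0 with TMM scaling.

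**Figure D4:**
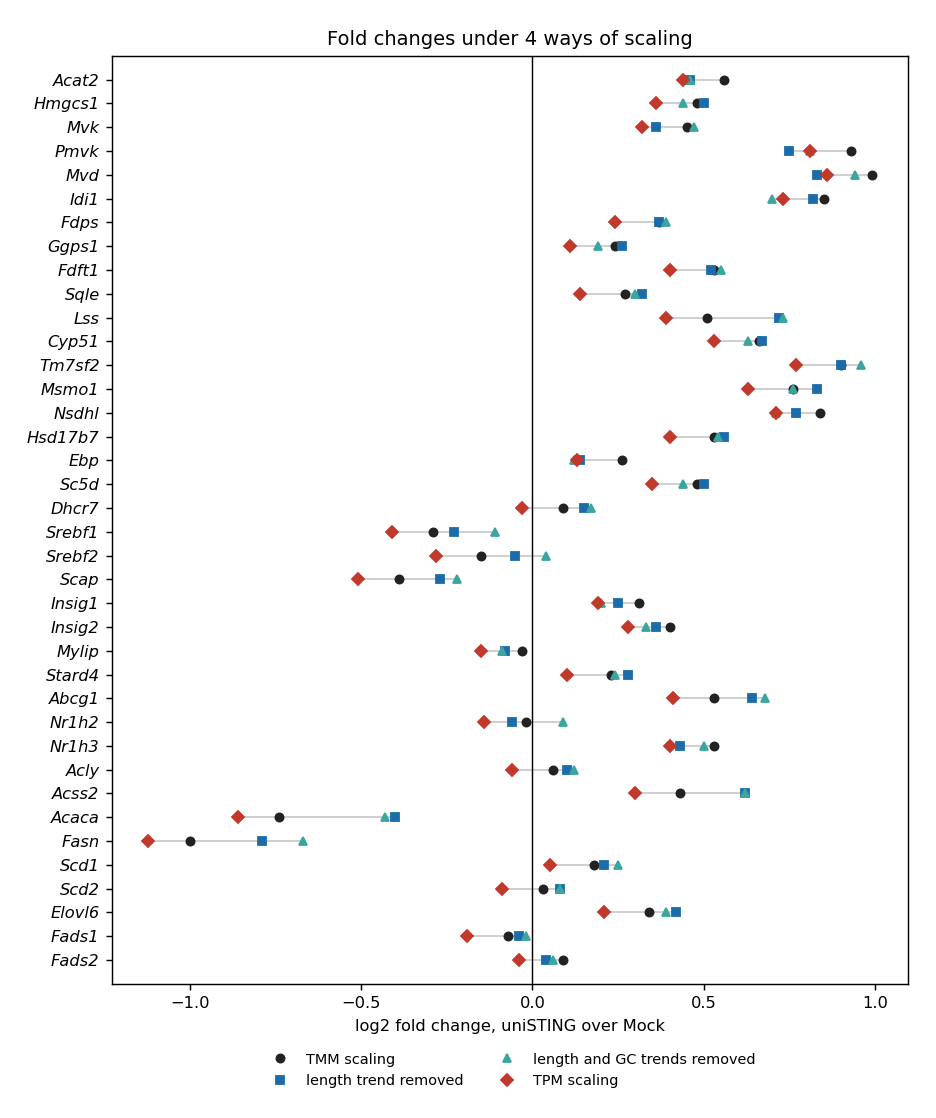
Log2 fold change of each tested member (y axis, pathway order) under TMM scaling, with the length trend removed, with length and GC trends removed, and under TPM scaling (x axis). The 7 sterol enzymes that rose at least 1.5-fold, the fall of Fasn and the fall of Acaca keep their side of 0 under all 4, while Dhcr7, Srebf2, Acly, Scd2, Fads2 and Nr1h2 lie on both sides of it.

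Further genes of the pathway came from lists outside the members. The counts of each list stand against 24.9% of all tested genes that rose and 25.4% that fell. Of 11 other SREBP targets in lipid synthesis 8 rose and 2 fell, with a median of 0.19. The largest rise was that of the retinol dehydrogenase gene Rdh11, 1.54-fold (adjusted p = 1.32e-07). Acsl3, a fatty acid-activating enzyme of lipid droplets, rose 1.32-fold, the citrate carrier gene Slc25a1 1.35-fold, and Tmem97, a sterol-regulated membrane protein gene, 1.25-fold. With the length trend removed, the log2 fold change of Tmem97, a gene of 1.38 kb, was 0.11 in place of 0.32. Gpam, which starts glycerolipid synthesis, fell 1.36-fold, and Mid1ip1, which activates acetyl-CoA carboxylase, 1.12-fold. Of 9 genes of SREBP cleavage and sterol-sensitive turnover 2 rose and 5 fell, with a median of -0.06. The site 1 protease gene Mbtps1, which makes the first cut in SREBPs, fell 1.24-fold (adjusted p = 2.15e-06), the ubiquitin ligase gene Rnf145 1.16-fold and the site 2 protease gene Mbtps2 1.16-fold. These 3 genes are long, at 10.5 kb for Mbtps1, 7.79 kb for Rnf145 and 10.1 kb for Mbtps2. With the length trend removed, Mbtps1 was at -0.11 in place of -0.31 on the log2 scale and Rnf145 at -0.09 in place of -0.22, and the Mbtps2 call was lost (-0.02, adjusted p = 0.699). Of the 9 genes of this list 3 then rose and 4 fell, against 23.4% and 22.2% of all genes. Without length and GC trends 2 of them rose and 3 fell, against 22.5% and 21.9% of all genes. With TPM scaling none of them rose and 5 fell, against 14.4% and 38.3% of all genes.

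Of 8 other LXR targets 5 were tested, of which Plin2, a lipid droplet coat gene, rose 1.10-fold (adjusted p = 0.00284), none fell and 4 did not pass. Over all genes 24.9% rose and 25.4% fell. At an unadjusted p under 0.05 edgeR and limma-voom each gave 3 higher and none lower, and DESeq2 gave 1 higher and none lower. By adjusted p, limma-voom called 1 higher and none lower, and DESeq2 called none in either direction. With the length trend removed 2 rose and none fell, against 23.4% and 22.2% of all genes. With TPM scaling none rose and 2 fell, against 14.4% and 38.3% of all genes, and Plin2 was at 0.01 on the log2 scale (adjusted p = 0.880). Abcg5 and Abcg8 had no read in any library, so levels of up to 0.0688 CPM in uniSTING and 0.0755 CPM in Mock, 3 counts over a group, cannot be told from none. Among 11 tested genes of sterol esterification, hydroxylation and trafficking, Npc2, a lysosomal cholesterol carrier, rose 1.35-fold (adjusted p = 1.54e-07) and the oxysterol-binding protein gene Osbp fell 1.07-fold (adjusted p = 0.0492). The Osbp call was lost with the length trend removed (adjusted p = 0.0875) and with length and GC trends removed (adjusted p = 0.0729). Under each of these the list counted 4 that rose and none that fell, against 23.4% and 22.2%, and 22.5% and 21.9%, of all genes. With TPM scaling 1 of the list rose and 4 fell, against 14.4% and 38.3% of all genes. Ch25h, which makes 25-hydroxycholesterol and is known as an interferon-induced gene, had no read in uniSTING and 0 and 2 counts in Mock, too few to show a difference at this depth. In the isoprenoid and prenylation branch 2 of 12 genes rose (Rabggtb and Nus1) and 2 fell (Icmt and Pggt1b), against 24.9% and 25.4% of all genes. Their median was 0.01, the same as over all genes. With the length trend removed 1 rose and 1 fell, as Pggt1b (-0.13, adjusted p = 0.227) and Rabggtb (0.07, adjusted p = 0.0687) lost their calls. With length and GC trends removed none of this branch rose and 1 fell. With TPM scaling none rose and 5 fell, against 14.4% and 38.3% of all genes. Of 12 other genes of fatty acid elongation and activation 6 rose with edgeR, against 24.9% of all genes. With DESeq2 5 of them rose, and its share over all genes is not given here. None fell with edgeR, DESeq2 or limma-voom, also at an unadjusted p under 0.05. Acsl4, which activates arachidonic acid, rose most, 1.36-fold (adjusted p = 6.49e-07), and Acsl5 1.13-fold, Hsd17b12 1.13-fold and Elovl7 1.22-fold. In that list 3 rose with the length trend removed (23.4% of all genes), where Hsd17b12 lost its call (0.06, adjusted p = 0.0880). Of the 12 genes 4 rose with length and GC trends removed (22.5% of all genes) and 1 with TPM scaling (14.4% of all genes). None fell under any of these.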

How the data were processed

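RNA sequencing counts of 2 uniSTING and 2 Mock libraries of 4T1 cells were analysed, with groups and replicate numbers taken from the titles. The authors deposited raw counts of fragments per gene. Per the file headers these came from featureCounts 2.0.1, which summed exons by gene from read pairs with no strand option, using the Ensembl 103 annotation (GRCm39) and alignments filtered to unique ones. The submitters' processing notes name HISAT2 as aligner; its version was not found in the labels or headers. The other column used, the summed exon length in bases, is as deposited.

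Symbols were matched for 52093 of 53647 genes. The test was that of edgeR 4.0.16 under R 4.3.3 (TMM, default filter with a minimum count of 10 and total of 15, glmQLFit and glmQLFTest, Benjamini-Hochberg adjustment, threshold 0.05), and the SE was derived from the F statistic. Intervals are at 95% and cover the spread between libraries, or counting error where so stated. TPM were computed from counts and exon length. Alternatives were DESeq2 1.42.0 and its size factors, limma-voom (limma 3.58.1), other filters, a replicate block, leaving out each library, and lowess offsets (span 0.3) for length and for GC content of GENCODE M21 transcripts (99.9% of tested genes). TPM scaling was added after seeing the data. Tests were checked on simulated counts. The members, lists and alternatives were chosen with earlier results of these data known. All 39 members are named by role, and from the other lists up to 4 genes with the smallest p among those that passed, with genes without reads; Gpam, Mid1ip1, Ch25h and Lpl were chosen after their values were seen, and 1 gene that the rule names is not reported here. Promoter windows are RefSeq's (GRCm38.p6), and no coordinates were converted. Exons of 14 members share bases with another gene.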

Additional observations from a re-analysis of the deposited data

How the results depend on the processing

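The 26 members that rose became 22 to 27 and the 5 that fell stayed at 5 when each library was left out, and over all genes 2585 to 3027 rose and 2702 to 3071 fell. With DESeq2 23 members rose and 5 fell, and its shares over all genes are not given here. TPM scaling, chosen after seeing the data, gave 8 members that fell, 1873 genes that rose and 4974 that fell, and medians of 0.32 for SREBP-driven members (0.40 for their sterol enzymes, -0.05 for their fatty acid genes), 0.13 for LXR-driven members and -0.12 for these with the shared members. The LXR-driven median was 0.53 without the low count filter and -0.03 with at least 1 CPM in 2 libraries, because Abca1 enters the first and Abcg1 leaves the second, and -0.06 to 0.45 when each library was left out (-0.06 to 0.04 with the shared members). Leaving out libraries gave 0.45 to 0.48 for SREBP-driven members, 0.51 to 0.55 for the sterol enzymes and 0.06 to 0.08 for the fatty acid genes among them. With length and GC trends removed, the medians of the SREBP-driven sterol enzymes and fatty acid genes were 0.55 and 0.09; the cause was not tested.

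Directions turned for Mylip without uniSTING replicate 1 (range over left-out libraries -0.11 to 0.04), for Nr1h2 without Mock replicate 2 (0.00) or uniSTING replicate 1 (range -0.07 to 0.03) and with length and GC trends removed (0.09), for Srebf2 with length and GC trends removed (0.04), and with TPM scaling for Acly (-0.06), Dhcr7 (-0.03), Fads2 (-0.04) and Scd2 (-0.09). Over all members and settings, 453 of the single-gene values kept direction and side of the threshold, 21 lost their call, 10 gained one and 9 turned. Same-numbered libraries deviated together in both groups (correlation 0.661 across 10836 genes), but the labels do not say that a number pairs them. With the replicate number as a block, 27 members rose and 5 fell, the added one being Scd2 (adjusted p = 0.0180). The shares over all genes with this block are not given here, so these member counts have no background beside them. Depth limits Abca1, Abcg1 and Nr1h3.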
